A study of Homo sapiens with 6 samples.

Results

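Messenger RNA of 8 enzymes of the citrate cycle was followed in VCaP, an established line of human prostate cancer cells, after silencing of NEDD9, a scaffold protein of focal adhesions. The genes were taken by name: CS, ACO1, IDH1, IDH2, OGDH, SDHA, FH and MDH2. All 8 were found among the 58735 gene identifiers of the count table, and all 8 passed the filter on low counts that left 13958 genes for testing. The cells had been stably infected with a short hairpin RNA against NEDD9 (shNEDD9) or with a non-targeting hairpin (shNTC). Both groups grew in DMEM with 10% FBS and held 3 libraries each, which the design text calls biological triplicates. The number of hairpins or clones behind each group is not stated in the labels. An effect of silencing NEDD9 therefore cannot be told apart from any other effect of its hairpin, or from differences between the infected populations. Infection with a hairpin as such was common to both groups.

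The citrate cycle oxidises acetyl groups in the mitochondrial matrix and passes the electrons to the respiratory chain as NADH and, through succinate dehydrogenase, as reduced flavin. Its intermediates also leave the cycle: citrate feeds fatty acid and sterol synthesis in the cytosol, and carbon returns from glutamine through alpha-ketoglutarate. Normal prostate epithelium is known for holding back citrate oxidation and secreting citrate, a habit that prostate cancer cells often lose. Of the 8 enzymes, citrate synthase (CS), IDH2, OGDH, SDHA and MDH2 work in mitochondria, FH has a mitochondrial and a cytosolic form, and ACO1 and IDH1 work outside mitochondria, in the cytosol (IDH1 also in peroxisomes).

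Library totals ran from 3217276 to 9902002 counts, the lowest being shNTC replicate 2. NEDD9 itself stood at 339 to 365 CPM in shNTC and 136 to 138 CPM in shNEDD9, a 2.62-fold decrease, and every library stood on the side its label gives. CPM are counts scaled to library size with TMM factors. All 8 markers of VCaP cells looked for were measured, and 2 of them rose, 4 fell and 2 were not called (median log2 fold change -0.22), from KLK3 (log2 fold change 1.75) to KRT8 (-1.43), whose gene overlaps KRT18 on the opposite strand. Of 17 markers of fibroblasts, endothelium, leukocytes and basal cells, 4 had 0 counts in all libraries (CDH5, CD3E, CD68 and KRT5). The summed fibroblast markers stood at 26.4 to 33.6 CPM in shNTC and 47.5 to 54.6 CPM in shNEDD9, while the summed leukocyte markers went from 15.2 to 20.4 CPM down to 1.34 to 1.65 CPM. These sums came mostly from LUM (19.2 against 45.2 CPM) and LYZ (log2 fold change -3.40). The only other fibroblast marker tested, COL1A1, fell by 0.55 on the log2 scale (edgeR adjusted p = 0.0106). The COL1A1 call was lost without shNTC replicate 2 (edgeR adjusted p = 0.112) and after thinning all libraries to the smallest total (0.164). It was also lost with DESeq2 (adjusted p = 0.0638). The part of all these markers in the results below was not tested.

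Most citrate cycle enzyme genes were higher after NEDD9 silencing: 6 of the 8 genes rose in shNEDD9, 1 fell and 1 was not called. A call is an adjusted p under 0.05 in edgeR's quasi-likelihood test, with Benjamini-Hochberg adjustment over all tested genes. Calls were common in this comparison, at 71.4% of tested genes, with 35.5% higher and 35.9% lower, so the share of called members (7 of 8) is read against that background. The median log2 fold change of the 8 genes was 0.43, against 0.00 for all tested genes. The increases were between 1.31-fold and 1.66-fold. Counting only changes of at least 1.2-fold, 6 members were higher and 0 lower, against 30.4% and 30.7% of tested genes. In bulk RNA, a change in RNA per cell and a change in the mix of cells cannot be told apart.

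CS, which joins acetyl-CoA to oxaloacetate to make citrate (ENSG00000062485, GRCh38 chr12:56271699-56300392, minus strand), stood at 281, 282 and 287 CPM in the shNTC libraries and at 399, 389 and 391 CPM in the shNEDD9 libraries. All shNEDD9 libraries lay above all shNTC libraries. CS rose 1.39-fold (log2 fold change 0.47, SE 0.03, edgeR adjusted p = 3.03e-51), and 22.4% of all tested genes had a higher log2 fold change.

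ACO1 encodes the cytosolic aconitase, which isomerises citrate to isocitrate and, without its iron-sulfur cluster, binds iron-responsive elements in RNA as IRP1 (ENSG00000122729, chr9:32384603-32454769, plus strand). Its levels were 52.7, 55.6 and 55.2 CPM in shNTC and 51.9, 54.8 and 56.4 CPM in shNEDD9. The groups overlapped, and ACO1 was the 1 member not called (log2 fold change 0.01, SE 0.07, edgeR adjusted p = 0.881). The approximate 95% interval of its change ran from 0.921-fold to 1.10-fold, which lies below the increase of each of the 6 members that rose.

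The NADP-dependent isocitrate dehydrogenases, IDH1 in the cytosol and IDH2 in mitochondria, make alpha-ketoglutarate and NADPH. IDH1 (ENSG00000138413, chr2:208236227-208266074, minus strand) stood at 383, 399 and 381 CPM in shNTC and at 507, 487 and 523 CPM in shNEDD9. It rose 1.31-fold (log2 fold change 0.39, SE 0.03, edgeR adjusted p = 3.84e-42). IDH2 (ENSG00000182054, chr15:90083045-90102504, minus strand) went from 418, 399 and 391 CPM to 673, 659 and 658 CPM. The lowest shNEDD9 value of each of these genes was above its highest shNTC value. IDH2 rose 1.64-fold (log2 fold change 0.72, SE 0.03, edgeR adjusted p = 1.04e-147), and its approximate 95% interval, 1.58-fold to 1.70-fold, did not meet that of IDH1, 1.26-fold to 1.36-fold.

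OGDH encodes the decarboxylating subunit of the alpha-ketoglutarate dehydrogenase complex (ENSG00000105953, chr7:44606572-44709066, plus strand) and was the 1 member that fell. It stood at 271, 271 and 263 CPM in shNTC and at 235, 239 and 228 CPM in shNEDD9. Each shNEDD9 library was below each shNTC library, but the decrease was small, at 13.0% (log2 fold change -0.20, SE 0.03, edgeR adjusted p = 1.07e-08). 37.3% of all tested genes had a lower log2 fold change, so a decrease of this size was common in these libraries.

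SDHA, the flavoprotein subunit of succinate dehydrogenase, which is also complex II of the respiratory chain (ENSG00000073578, chr5:218241-256700, plus strand), stood at 104, 100.2 and 93.9 CPM in shNTC and at 127, 131 and 131 CPM in shNEDD9. It rose 1.31-fold (log2 fold change 0.39, SE 0.05, edgeR adjusted p = 1.73e-15). SDHA has near-identical pseudogenes, so some of its reads may have been dropped or split. The counts assigned to SDHAP1 and SDHAP3 were 2.99% and 1.47% of those of SDHA over the 6 libraries, and SDHAP2 had 0 counts.

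FH, fumarate hydratase, which makes malate from fumarate (ENSG00000091483, chr1:241497603-241519761, minus strand), went from 87.8, 89.5 and 92.8 CPM to 152, 151 and 146 CPM. MDH2, the mitochondrial malate dehydrogenase that regenerates oxaloacetate (ENSG00000146701, chr7:76048051-76067508, plus strand), went from 322, 336 and 315 CPM to 533, 504 and 516 CPM. In both genes the groups were far apart compared with the spread inside them. FH rose 1.66-fold (log2 fold change 0.73, SE 0.05, edgeR adjusted p = 2.16e-52) and MDH2 by 60.3% (log2 fold change 0.68, SE 0.03, edgeR adjusted p = 9.24e-118). With IDH2 they were the 3 members with the largest increases, and between 13.2% and 14.7% of all tested genes had a higher log2 fold change than each of them. In 7 of the 8 members the groups lay apart with no overlap, as they did in 71.8% of all tested genes.

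**Figure D1:**
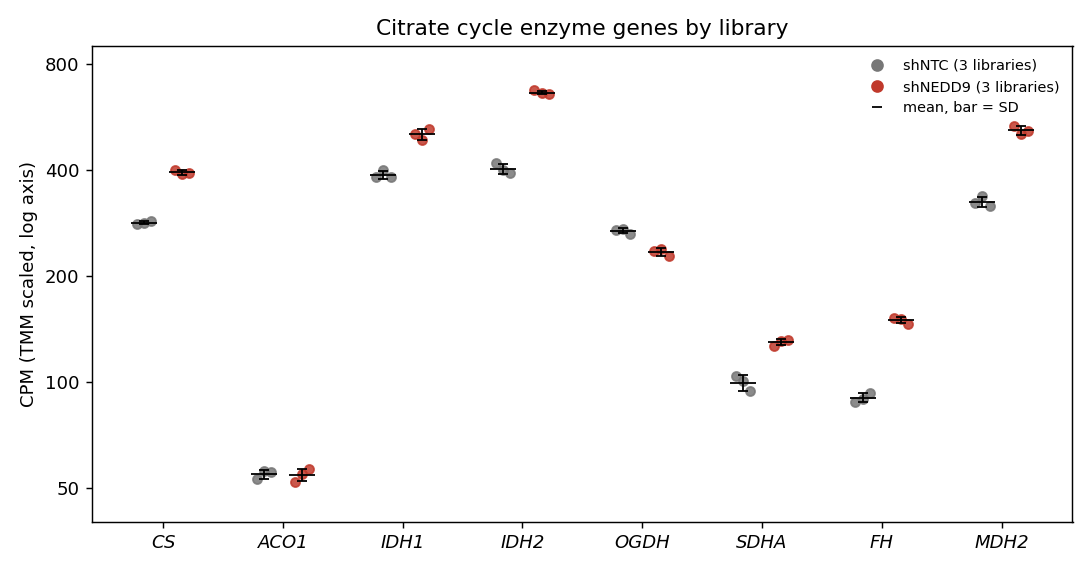
CPM of the 8 enzyme genes (log axis) in each library, in the order of the cycle, with points for libraries and bars for the mean and SD of 3 libraries per group. The 6 genes that rose and OGDH show groups that do not overlap, and the ACO1 points of both groups lie together between 51.9 and 56.4 CPM.

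The 8 genes together took 1879 to 1934 CPM in the shNTC libraries and 2616 to 2677 CPM in the shNEDD9 libraries. Levels of different genes were compared per kilobase of merged GENCODE exons, which understates genes with long rare exons. On this scale IDH2 was the most abundant member, at 143 CPM per kilobase in shNTC and 236 in shNEDD9, followed by MDH2 (89.1 and 142) and IDH1 (82.1 and 107). SDHA (11.8 and 15.5) and ACO1 (7.22 and 7.19) were the least abundant. OGDH, with 51.5 and 44.9 CPM per kilobase, was 4th in shNTC, above CS (44.2) and FH (42.0), and 6th in shNEDD9, below FH (69.8) and CS (61.4). Within each group no neighbours in this order overlapped between libraries.

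Ratios of counts within a library do not depend on how libraries are scaled. IDH2 counts were 1.09, 1 and 1.03 times those of IDH1 in shNTC and 1.33, 1.35 and 1.26 times in shNEDD9, so the mitochondrial isoenzyme took a larger part of the pair. The ratio rose 1.26-fold. The ratio of MDH2 to the cytosolic MDH1 was 2.51, 2.53 and 2.40 in the control libraries. It reached 2.76, 2.71 and 2.80 after silencing, a small difference of 1.11-fold. In both pairs the libraries of the groups did not overlap.

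OGDH stood at 2.61, 2.71 and 2.81 times the counts of SDHA in shNTC and at 1.85, 1.83 and 1.73 times in shNEDD9, which is the largest shift among the 4 pairs compared (log2 difference -0.59). CS relative to ACLY, the cytosolic enzyme that splits citrate, differed least. Its log2 ratio was 0.23 ± 0.05 in shNTC and 0.32 ± 0.04 in shNEDD9 (SD, n = 3 each), a difference of 0.09, and 0.028 after thinning all libraries to the smallest total. With 3 libraries against 3, a two-sided exact permutation test cannot go below p = 0.1. Each of the 4 pairs reached that value (0.1 after Benjamini-Hochberg adjustment over the 4).

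**Figure D2:**
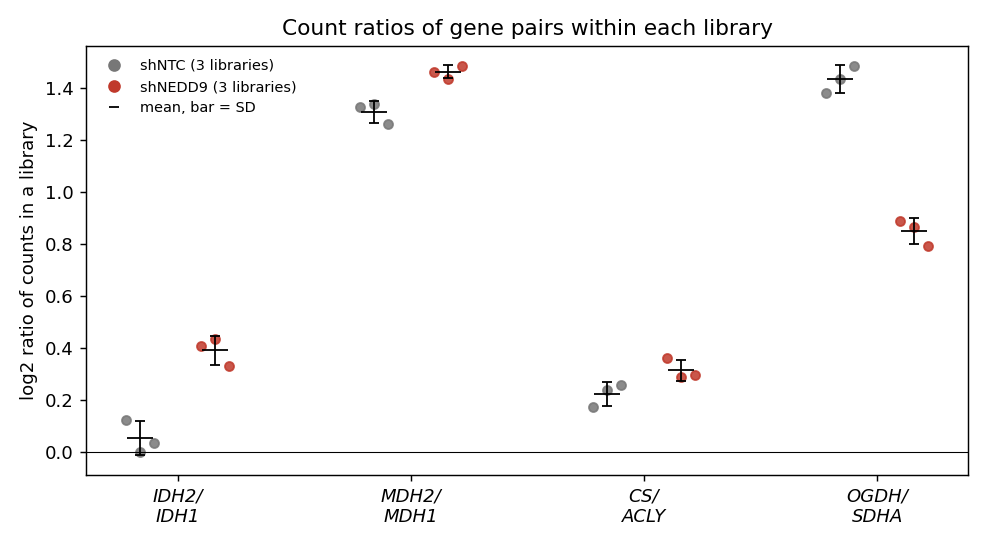
The log2 ratio of counts of 4 gene pairs within each library, with points for libraries and bars for the mean and SD of 3 libraries per group. IDH2 over IDH1 sits higher in shNEDD9, and OGDH over SDHA sits lower.

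The other genes of the cycle came from a list of 12, all tested, of which 9 rose, 2 fell and 1 was not called (median log2 fold change 0.38). Among tested genes as a whole 35.5% rose and 35.9% fell, and the counts of this and the following lists are to be read against these shares. Several of them are singled out here after their values were seen. Subunits of the same enzyme did not share a direction. Succinate-CoA ligase makes succinate from succinyl-CoA and pairs the alpha subunit SUCLG1 with the GTP-type beta subunit SUCLG2 or the ATP-type SUCLA2. SUCLG1 rose 2.16-fold, from 64.5, 66.6 and 71.8 CPM to 144, 151 and 144 CPM (edgeR adjusted p = 9.35e-104). SUCLG2 fell by 0.43 on the log2 scale (SE 0.06, edgeR adjusted p = 4.98e-14), and SUCLA2 rose 1.33-fold (edgeR adjusted p = 3.17e-07).

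In succinate dehydrogenase, the iron-sulfur subunit SDHB and the membrane anchor SDHD rose 1.61-fold and 1.88-fold, as SDHA did by less. The other anchor, SDHC, stood at 61.6 ± 3.13 CPM in shNTC and 62.4 ± 2.32 CPM in shNEDD9 (SD, n = 3 each) and was not called (edgeR adjusted p = 0.931). In the NAD-dependent isocitrate dehydrogenase, IDH3B rose 2.06-fold. Its catalytic subunit IDH3A rose by only 0.13 on the log2 scale (edgeR adjusted p = 0.0279), and IDH3G fell by 0.18 (edgeR adjusted p = 0.0187). IDH3A and IDH3G are weak calls: IDH3A was lost without shNTC replicate 3 (edgeR adjusted p = 0.125) or shNEDD9 replicate 3 (0.128). The IDH3A call was also lost after thinning all libraries to the smallest total (edgeR adjusted p = 0.0909) and with DESeq2 (adjusted p = 0.0888). IDH3G was lost without shNTC replicate 1 (edgeR adjusted p = 0.452) or shNEDD9 replicate 3 (0.230), and with the replicate number as a block (0.0566). The IDH3G call was also lost with no count filter (edgeR adjusted p = 0.0837), after thinning (0.0583) and with DESeq2 (adjusted p = 0.173).

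The partners of OGDH went the other way from it. DLST, the succinyltransferase core of the complex, rose 1.28-fold and DLD, the dihydrolipoamide dehydrogenase that several complexes share, 1.38-fold. OGDHL, a relative of OGDH, rose 1.28-fold, from 72.8, 66.9 and 68.1 CPM to 94.8, 93.5 and 82.7 CPM.

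**Figure D3:**
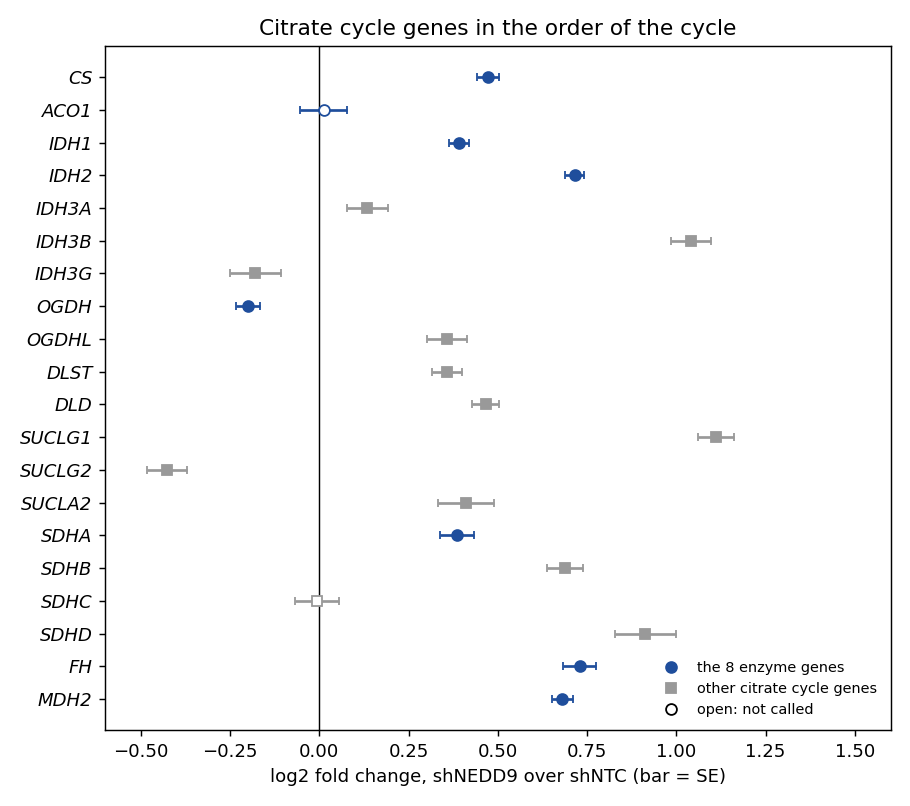
Log2 fold change of shNEDD9 over shNTC with its SE for 20 genes of the citrate cycle, ordered by step, with circles for the 8 enzyme genes, squares for the other genes and open symbols for genes not called. Of the called genes, OGDH (-0.20), IDH3G (-0.18) and SUCLG2 (-0.43) lie left of 0. SUCLG1 (1.11) lies farthest to the right of all genes plotted.

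Genes that bring pyruvate into the cycle were mixed, with 7 of 12 tested genes higher, 2 lower and 3 not called (median log2 fold change 0.45), a called share near the 71.4% of all tested genes. After thinning, 1 of them was lower. DLAT, the acetyltransferase core of pyruvate dehydrogenase, rose 2.44-fold, and PDHA1, a subunit of its decarboxylase, 1.41-fold. PDK1, a kinase that inhibits this complex, rose 3.67-fold, from 29.6, 30.8 and 30.4 CPM to 111, 114 and 108 CPM (edgeR adjusted p = 1.48e-175). Of the mitochondrial pyruvate carrier subunits, MPC1 rose 1.64-fold and MPC2 fell by 0.24 on the log2 scale (edgeR adjusted p = 8.22e-10).

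Among anaplerotic enzymes and cytosolic partners, 7 of 9 tested genes rose and 1 fell (median log2 fold change 0.41), where 71.4% of all tested genes were called and 35.5% rose. The largest increase was that of PCK2, the mitochondrial phosphoenolpyruvate carboxykinase, which uses oxaloacetate. PCK2 rose 6.69-fold, from 29.2, 30.8 and 29.1 CPM to 207, 190 and 197 CPM (edgeR adjusted p below 1e-300). The aspartate aminotransferases GOT1 (cytosolic) and GOT2 (mitochondrial) rose 2.38-fold and 1.71-fold. The cytosolic malic enzyme ME1 fell by 0.60 on the log2 scale (edgeR adjusted p = 2.13e-12).

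Glutamine carbon enters the cycle by way of glutamate and alpha-ketoglutarate. Of 7 tested glutamine and glutamate genes, 4 rose, 1 fell and 2 were not called (median log2 fold change 0.35), a called share near the 71.4% of all tested genes. The glutamine transporter gene SLC1A5 rose 4.45-fold, from 143, 155 and 133 CPM to 635, 629 and 626 CPM (edgeR adjusted p below 1e-300). GPT2, a mitochondrial alanine aminotransferase that makes alpha-ketoglutarate from glutamate, rose 3.65-fold, and the glutamate dehydrogenase gene GLUD1 1.27-fold. GLUL, which makes glutamine, fell by 0.19 on the log2 scale (edgeR adjusted p = 1.74e-06). GLUD2, a close copy of GLUD1, was called higher at 1.07 against 2.36 CPM. It is reported as uncertain, since how reads were divided between the copies was not tested, and the call was lost with DESeq2 (adjusted p = 0.0653).

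Genes of 2-hydroxyglutarate removal, lipoyl attachment and succinate dehydrogenase assembly included 6 higher and 1 lower of 8 (median log2 fold change 0.62), where 35.5% and 35.9% of all tested genes were higher and lower. D2HGDH, which turns D-2-hydroxyglutarate back into alpha-ketoglutarate, rose 1.61-fold. SDHAF3, an assembly factor for SDHB, rose 1.89-fold. LIPT2, an enzyme of lipoyl transfer, rose 2.48-fold at 3.44 against 7.53 CPM. LIPT1, called lower near the limit of detection (2.47 against 1.73 CPM, edgeR adjusted p = 0.0382), was lost without shNTC replicate 1 (0.0651) or 3 (0.391) and without shNEDD9 replicate 2 (0.0965) or 3 (0.208). It was also lost with the replicate number as a block (edgeR adjusted p = 0.0778), with no count filter (0.0992), with limma-voom (0.0731) and with DESeq2 (0.252).

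Of 10 markers of mitochondrial content, 8 rose, 0 fell and 2 were not called (median log2 fold change 0.66), where 35.5% of all tested genes rose and 35.9% fell. The prohibitin gene PHB2 rose 2.21-fold, and CYCS, which encodes cytochrome c, and TFAM, which packages mitochondrial DNA, 2.04-fold each. POLG, the mitochondrial DNA polymerase gene, stood at 87.1 ± 1.45 and 89.7 ± 5.18 CPM (SD, n = 3 each) and was not called (edgeR adjusted p = 0.689). Mitochondrially encoded transcripts took 3.29% to 3.40% of counts in shNTC and 2.39% to 2.43% in shNEDD9.

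**Figure D4:**
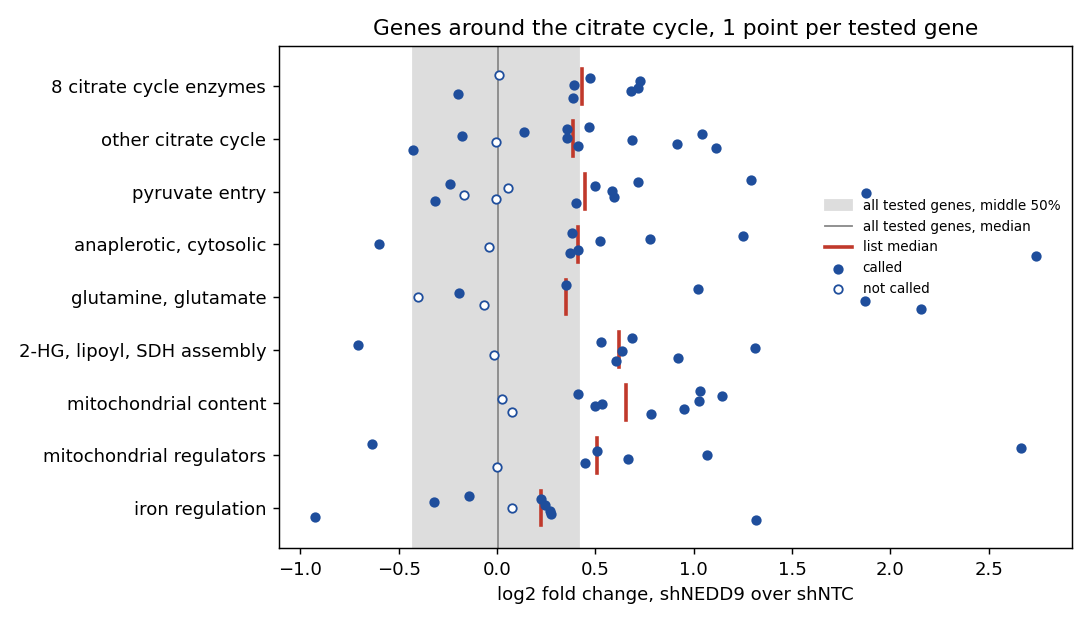
Log2 fold change of shNEDD9 over shNTC for each tested gene of 9 lists (filled when called, open when not), with the list median as a red line and the middle 50% and median of all 13958 tested genes in grey. The median of the 8 enzymes is 0.43, that of the mitochondrial content list is 0.66 and that of all tested genes is 0.00.

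Promoter sequence was read for the members because most of them moved together while ACO1 did not. RefSeq windows on GRCh38.p14, from 250 bases before to 50 after a transcript start, matched 7 of the 8 members in 8 windows. OGDH had no match. The transcript starts behind the windows of FH, SDHA, MDH2, ACO1 and CS lay within 79 bases of the GENCODE gene start, whereas that of IDH2 lay 1883 bases and those of IDH1 at least 11003 bases inside the GENCODE gene. Shown are 100 bases before the more upstream of the RefSeq and GENCODE starts for 3 members that rose (MDH2, FH and CS) and for ACO1. Capitals mark the motifs CCGGAAG (bound by ETS factors) and GGGCGG (the GC box) on either strand, which were picked after other motifs had given no match. Each stretch shown holds a marked motif. The windows of SDHA and IDH2, which also rose, hold neither motif and are not shown.
MDH2, chr7:76047951-76048050, plus strand: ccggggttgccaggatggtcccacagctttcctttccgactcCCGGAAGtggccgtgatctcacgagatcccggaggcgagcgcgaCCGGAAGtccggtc
FH, chr1:241519762-241519861, minus strand: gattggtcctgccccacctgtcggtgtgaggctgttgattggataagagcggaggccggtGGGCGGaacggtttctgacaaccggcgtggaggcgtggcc
CS, chr12:56300393-56300492, minus strand: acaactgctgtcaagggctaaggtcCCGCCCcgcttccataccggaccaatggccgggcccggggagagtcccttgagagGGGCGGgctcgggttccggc
ACO1, chr9:32384503-32384602, plus strand: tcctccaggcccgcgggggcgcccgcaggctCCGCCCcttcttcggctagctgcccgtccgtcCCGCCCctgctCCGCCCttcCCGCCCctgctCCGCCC

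MDH2 was the only member with CCGGAAG in its window, which 10.3% of all 35116 windows hold on either strand. GGGCGG lay in 5 of the 8 member windows, which belong to 4 members (FH, IDH1, ACO1 and CS), against 45.0% of all windows. ACO1, which was not called, held it as well as members that rose. The E-box CACGTG (7.26% of all windows), the NRF1 motif (1.24%) and AAGGTCA, bound by the estrogen-related receptors (3.92%), were in 0 of the 8 member windows. TTACGTAA, searched as a motif only like those of CREB and ATF (0.125%), and the ATF4-like TGATGNAA (3.62%) were in 0 as well. Other forms of CREB and ATF sites were not searched. The promoter windows of the members thus had no motif in common among those searched, and no match says only that these letters are not in these windows.

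The 8 genes lie on 7 chromosomes, with OGDH and MDH2 both on chromosome 7. For each member the gene of most similar profile over the 6 libraries was sought among 9881 genes outside the lists with a mean of at least 10 CPM, by Euclidean distance between centred log2 CPM values. The nearest were MCTP2 for CS (distance 0.02 on the log2 scale), ANAPC7 for IDH1 (0.03), ERRFI1 for IDH2 (0.03) and SLC41A3 for SDHA (0.03). For FH it was ATE1 (0.04), for MDH2 LSS (0.05), for OGDH ARIH1 (0.04) and for ACO1 MED16 (0.05). These distances rest on 6 libraries in 2 groups, which all genes share.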

How the data were processed

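Libraries of 3 shNTC and 3 shNEDD9 samples were prepared from column-isolated RNA with a strand-specific Illumina kit, per the labels. The values, as deposited by the authors, are read counts per gene, in whole numbers and without normalisation. Tools named per the submitters' processing notes are STAR 2.5.3a, cutadapt 1.9, FastQC 0.11.5, featureCounts and Subread 1.6.2, beside the builds GRCh38 and hg19. The sources used here do not give the strand setting or the annotation release, so reads of antisense partners may be mixed. All identifiers occur in GENCODE 29 (GRCh38), which gave coordinates and exon lengths. 1 empty row was left out.

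Tests used edgeR 4.0.16 in R 4.3.3 (TMM, filterByExpr with a minimum count of 10, glmQLFit with robust estimation, glmQLFTest, no covariate), adjusted by Benjamini-Hochberg over 13958 genes. SE is the absolute unmoderated log2 fold change over the square root of F, and intervals are 1.96 SE on each side. A count of 3, the floor of detection, equals 0.303 to 0.932 CPM and covers counting error only. A chi-square over its degrees of freedom was 1.14 to 1.20 for pairs of replicates, so each pair differed by only slightly more than counting noise. The common spread beyond counting noise, edgeR's biological coefficient of variation, was small at 1.65%. Each library was counted once. The spread behind the p-values is that of these libraries and may be technical.

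On counts simulated for 13958 genes of this comparison, 48% of genes changed 1.2-fold were recovered, 84% at 1.5-fold, 96% at 2-fold and 100% at 4-fold, with 10 false among 174 calls. Only 50 genes were changed at each fold, and all genes had the common spread. In the data 71.4% of tested genes were called, so these rates may not hold for the comparison itself. Other settings were RLE, upper-quartile and no scaling factors, 2 other filters, DESeq2 1.42.0, limma-voom (limma 3.58.1), a replicate block, mitochondrial and small RNA genes left out, thinning, and each library left out. A rule set beforehand named all members, NEDD9, the ratio pairs and the nearest profiles. Per list it took up to 3 called genes of largest absolute log2 fold change with a mean of at least 1 CPM. Where none was called, it took the 2 most abundant. Other genes of the lists, such as SUCLG2, SDHC and ESRRA, were added outside this rule after their values were seen. Some genes of the rule, such as SLC39A2 and TMPRSS2, are not described. Some genes and pairs of the lists are not reported here and were left out of the counts and medians of their lists after these had been computed with them. The members and lists were chosen with earlier results of these data known.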

Additional observations from a re-analysis of the deposited data

How the results depend on the processing

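The call of each of the 8 members was the same under all 16 other settings chosen at the start (128 of 128 values). The called members also kept their direction. ACO1 was not called under any setting (log2 fold change -0.02 to 0.14, adjusted p 0.186 to 0.987), and its sign differed between settings. OGDH ranged from -0.22 to -0.17 and IDH2 from 0.69 to 0.75. A threshold of at least 1.2-fold, added after the data were seen, left 6 members higher and 0 lower, since OGDH changed by less. Thinning moved 2 log2 differences of count ratios by more than the spread between libraries: 0.20 for MDH2 to MDH1 and 0.028 for CS to ACLY. Of 288 counts over lists, 271 stayed within 1.5 times and 17 did not. These included the 2 lower genes of the other cycle enzymes, which became 1 in 6 settings as IDH3G was lost, and the 1 lower gene of the lipoyl and assembly list, which became 0 in 9 settings as LIPT1 was lost or, after thinning, not tested. The other 2, both after thinning, were the lower pyruvate genes (1) and the higher regulators of mitochondrial genes (3). Replicate numbers showed no sign of pairing: deviations of same-numbered libraries correlated at -0.03, 0.01 and 0.03 over 9972 genes. With the replicate number as a block, 9834 genes were called (9964 without it), and the members stayed at 6 higher and 1 lower. The lowest total, 3217276 counts in shNTC replicate 2, limits the genes near 1 CPM, such as GLUD2 and LIPT1, and not the members, which had at least 177 counts in each library.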

Other observations

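ACO1 doubles as an iron regulator. Of 9 other genes of iron handling, 5 rose and 3 fell, where 71.4% of all tested genes were called. The call of FBXL5 (lower, log2 fold change -0.14) was lost in 9 of the other settings. TFRC, the transferrin receptor gene, rose 2.49-fold, from 285, 271 and 275 CPM to 681, 680 and 716 CPM. SLC40A1, which encodes the iron exporter ferroportin, fell by 0.93 on the log2 scale (edgeR adjusted p = 1.64e-18), and the ferritin light chain gene FTL by 0.32 (edgeR adjusted p = 7.76e-25). The ferritin heavy chain gene FTH1 rose 1.17-fold, the other way from FTL, with groups that overlapped (edgeR adjusted p = 1.01e-06). The FTH1 call was lost with DESeq2 (adjusted p = 0.0746). IREB2, the gene of the related regulator IRP2, rose 1.18-fold. Neither protein nor iron was measured.

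Of 7 tested regulators of mitochondrial genes, 5 rose and 1 fell, where 35.5% and 35.9% of all tested genes did. After thinning all libraries to the smallest total, 3 of them were higher. MYC rose 2.09-fold and NRF1 1.59-fold, while ESRRA, which encodes estrogen-related receptor alpha, fell by 0.63 on the log2 scale, from 133, 143 and 134 CPM to 82.6, 91.4 and 86.7 CPM (edgeR adjusted p = 1.22e-38). Its relative ESRRG was called higher at a far lower level (0.448 against 3.16 CPM). It had 3, 1 and 4 counts in the shNTC libraries, around the detection floor of 3 counts. PPARGC1A had 9 counts over the 6 libraries and was not tested.

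Normal prostate epithelium is known for accumulating zinc. Of 7 zinc transporter genes, 2 rose and 3 fell, a called share near the 71.4% of all tested genes. SLC30A4, the most abundant, fell by 0.87 on the log2 scale, from 250, 248 and 248 CPM to 136, 132 and 139 CPM (edgeR adjusted p = 8.11e-114), and SLC30A1, a zinc exporter of the cell surface, rose 1.38-fold. Zinc itself was not measured.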
